A study of Mus musculus with 63 samples.

Results

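Ovary RNA of 6-month-old C57BL/6 females that had gone through 8 weeks of chronic unpredictable mild stress (CUMS) was compared with ovary RNA of unstressed controls (Ctrl) of the same age and duration, the set titled 6M-8W. The libraries were chosen by their titles, 4 CUMS and 4 Ctrl, which makes 8 of the 63 libraries of the series. The other 23 ovary libraries come from CUMS and Ctrl animals of 3 further sets, 2M-8W, 2M-12W and 6M-12W, each with its own controls. No allele, transgene or other agent is labelled in any group. The series' design text can be read as tying 8 weeks to the younger animals and 12 weeks to the older ones, whereas the titles pair each age with both durations, and the titles were followed. Whether a library holds 1 animal or a pool, when age was counted, and the estrous stage, hour of collection and batch are not stated in the sources used here, so p-values measure the spread between these libraries.

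CUMS is a rodent model of depression-like states in which mild stressors such as wet bedding, tilted cages or altered lighting follow one another on an unpredictable schedule. Stress hormones from the adrenal gland and the pituitary gonadotropins both act on the ovary, where follicles of granulosa and theca cells around an oocyte grow, ovulate and turn into steroid-producing corpora lutea. Most cells, ovarian cells among them, also run a circadian clock, in which the activators BMAL1 (gene Arntl) and CLOCK drive the period, cryptochrome and REV-ERB genes, whose products repress the activators in turn.

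Total counts were 14700068 to 23266457 per library, and 20183 to 21134 genes had a count. Transcripts that define the ovary were present in all 8 libraries: Amh of granulosa cells was at 127 to 216 counts per 1000000 (CPM) in CUMS and 170 to 289 in Ctrl, and Gdf9 of oocytes was at 34.7 to 58.8 CPM in CUMS and 36.8 to 71.6 in Ctrl. Prl, a pituitary hormone gene, was found at 40.7 to 69.1 CPM in CUMS and 42.5 to 56.2 in Ctrl. Other pituitary hormone genes had counts too, with highest library counts of 811 for Gh, 153 for Pomc, 31 for Cga and 11 for Lhb. The source of these transcripts was not tested. Mitochondrial genes took 4.78 to 6.59% of counts in CUMS and 4.44 to 5.29% in Ctrl (exact permutation test, two-sided, p = 0.114, the smallest possible being 0.0286). Oviduct and cilia markers, a neighbouring tissue, summed to 10.6 to 114 CPM in CUMS and 14.03 to 91.7 in Ctrl, with the high values in CUMS 1, CUMS 2 and Ctrl 2. This sum weighs Ovgp1 most, whose highest library count was 2240, while no other member exceeded 131. Markers of adipocytes summed to 47.2 to 75.5 CPM in CUMS and 51.0 to 69.5 in Ctrl.

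After stress, genes of the circadian clock and of the interferon response stood among the higher transcripts, while 2 of 20 matrix genes passed as lower. With an adjusted p under 0.05, 99 of 17766 tested genes rose and 100 fell, together 1.12% of those tested (0.557% higher and 0.563% lower). The median log2 fold of all tested genes was -0.01, where a log2 fold of 1 is a factor of 2. All 4 CUMS libraries lay above all 4 Ctrl libraries in 795 genes (4.47%) and below them in 990 genes (5.57%). Among the called genes the groups were apart in 79 of the 99 that rose and in 83 of the 100 that fell. Most calls lie close to the threshold: 66 of the higher and 57 of the lower genes had an adjusted p above 0.04. The count moved with single libraries, and was 21 without CUMS 3, 6 without CUMS 4, 4 without Ctrl 1, 33 without Ctrl 2, 12 without Ctrl 4 and 336 without Ctrl 3. Of 50 named genes that were called, all 50 kept their sign in each of 14 alternative fits, and 4 (Per3, Nr1d2, Cers6 and Cacna1c) were called in every one.

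Among clock genes, Per3 and Nr1d2 gave the steadiest difference and were called in all 14 alternatives. Per2 was called in 9 of the 14, Tef in 7 and Hlf in 4. Of 19 clock genes, 5 rose and none fell by the test, with a median log2 fold of 0.25, against 0.557% of all tested genes that rose. Per3, a period gene whose product takes part in the repressing arm, was at 66.6, 69.6, 65.3 and 63.0 CPM in CUMS 1 to 4 and at 30.2, 31.1, 41.9 and 26.9 CPM in Ctrl 1 to 4. Every stressed ovary lay above every control. The log2 fold was 1.02 ± 0.16 (SE, n = 4 each, adjusted p = 0.00359, edgeR), and it stayed between 0.94 and 1.18 in the 14 alternatives. Its promoter is shown because it was the one promoter among 16 clock genes with a match in the RefSeq table (GRCm38.p6) that held the D-box letters TTATGTAA, the element bound by the clock output factors DBP, TEF and HLF. Both strands of the 250 bases before each start were searched, and 264 of 27025 genes (0.977%) hold the letters there. The Per3 window is chr4:151044666-151044915 on the minus strand, and capitals mark the matches, which begin 205 and 158 bases before the start.
Per3: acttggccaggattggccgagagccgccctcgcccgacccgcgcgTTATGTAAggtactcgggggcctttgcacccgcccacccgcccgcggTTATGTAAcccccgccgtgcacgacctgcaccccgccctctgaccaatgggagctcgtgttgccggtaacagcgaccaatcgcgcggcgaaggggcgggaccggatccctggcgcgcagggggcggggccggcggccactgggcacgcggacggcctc
A match of letters describes the window and does not show that a factor binds it.

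**Figure D1:**
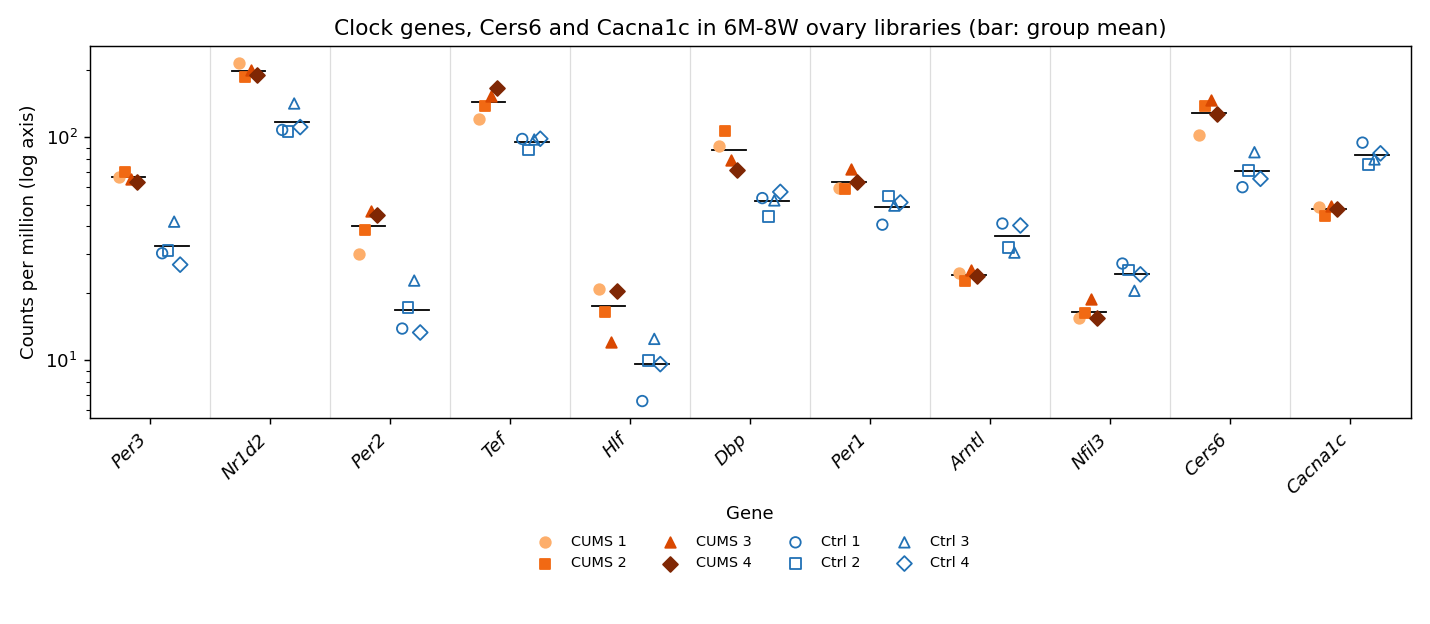
CPM on a log axis for 9 clock genes and for Cers6 and Cacna1c in each 6M-8W ovary library. Filled symbols are CUMS 1 to 4, open symbols are Ctrl 1 to 4, and bars are group means. For Per3 the CUMS libraries lie at 63.0 to 69.6 and the Ctrl libraries at 26.9 to 41.9.

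Nr1d2, which encodes the repressor REV-ERB beta, was at 216, 187, 201 and 190 CPM in CUMS 1 to 4 and 108, 106, 142 and 111 CPM in Ctrl 1 to 4. The groups did not overlap, and Ctrl 3 was the highest control. The log2 fold was 0.76 ± 0.12 (SE, n = 4 each, adjusted p = 0.00359). Per2, the other period gene called, was at 29.9, 38.4, 46.6 and 44.8 CPM in CUMS and 13.9, 17.3, 22.8 and 13.3 CPM in Ctrl, again with no overlap (log2 fold 1.24 ± 0.24, adjusted p = 0.0209). The 2 output factors that were called belong to the PAR bZIP family. Tef was at 121, 139, 153 and 167 CPM in CUMS and 98.4, 87.8, 97.8 and 98.6 CPM in Ctrl, a log2 fold of 0.60 ± 0.13 (adjusted p = 0.035). Hlf averaged 17.5 ± 4.12 CPM in CUMS and 9.67 ± 2.42 in Ctrl (SD, n = 4 each), and CUMS 3 at 12.1 CPM lay within the controls (log2 fold 0.85, adjusted p = 0.0455).

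Of the activator genes, neither Arntl, Npas2 nor Clock passed the threshold. Arntl was at 24.8, 22.7, 25.5 and 23.9 CPM in CUMS and 41.1, 32.2, 30.4 and 40.3 CPM in Ctrl, with no overlap (log2 fold -0.57 ± 0.15, adjusted p = 0.0545). Npas2, a close relative of Clock, had a log2 fold of -0.86 with overlapping groups (adjusted p = 0.135), and Clock one of 0.11 (adjusted p = 0.825). Nfil3, a repressor at D-boxes, was at 15.5 to 18.9 CPM in CUMS and 20.5 to 27.2 CPM in Ctrl (log2 fold -0.56, adjusted p = 0.215). Dbp was at 71.3 to 107 CPM in CUMS and 44.2 to 56.9 CPM in Ctrl (log2 fold 0.76, adjusted p = 0.181), and Per1 at 58.7 to 71.9 CPM in CUMS and 40.6 to 54.7 CPM in Ctrl (log2 fold 0.37, adjusted p = 0.21). Cry1, Cry2 and Nr1d1 had log2 folds between 0.18 and 0.25, with overlapping groups. In all, 7 clock genes lay wholly above and 2 wholly below the controls, where 4.47% and 5.57% of all genes do so. Leaving out single libraries left 2 to 5 clock genes called as higher, with 2 left without CUMS 4, without Ctrl 1 or without Ctrl 4, and 3 without CUMS 3 or without Ctrl 2. An hour of collection that differed between the groups and the stress cannot be told apart.

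Cers6 and Cacna1c shared the steadiness of Per3 and Nr1d2. Cers6, a ceramide synthase of the endoplasmic reticulum, was at 103, 138, 147 and 128 CPM in CUMS 1 to 4 and 59.8, 71.0, 85.8 and 65.2 CPM in Ctrl 1 to 4. All stressed ovaries exceeded all controls, by a log2 fold of 0.87 ± 0.13 (SE, n = 4 each, adjusted p = 0.00359). Cacna1c, the pore-forming subunit of an L-type calcium channel, was at 48.9, 44.3, 49.3 and 47.8 CPM in CUMS and 94.7, 75.6, 79.6 and 84.8 CPM in Ctrl. The CUMS values spanned a narrow range below every control, and the log2 fold was -0.81 ± 0.13 (adjusted p = 0.00359).

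Among the other genes that rose, Mgat4c, a glycosyltransferase gene of the Golgi, was at 29.97, 19.2, 18.1 and 15.5 CPM in CUMS and 3.86, 6.11, 5.21 and 7.48 CPM in Ctrl. The lowest stressed ovary held more than every control (log2 fold 1.86 ± 0.34, adjusted p = 0.0131), and the call held in 12 of the 14 alternatives. Ada, adenosine deaminase, was at 19.4, 24.5, 21.5 and 26.2 CPM in CUMS and 7.80, 9.58, 13.0 and 10.4 CPM in Ctrl (log2 fold 1.16 ± 0.20, adjusted p = 0.0117), and was called in 11 of 14. A2m, the protease inhibitor alpha-2-macroglobulin, had the highest fold by the naming rule. It was at 3.80, 27.7, 12.2 and 8.11 CPM in CUMS and 0.81, 1.01, 0.50 and 1.10 CPM in Ctrl, and CUMS 2 was the highest library (log2 fold 3.91 ± 0.92, adjusted p = 0.0416). Slmapos2, a transcript named as lying opposite Slmap, was high in CUMS 1 and 2 at 6.10 and 7.77 CPM, while CUMS 3 and 4 at 1.16 and 1.34 CPM lay near the controls at 1.001 to 1.29 CPM (log2 fold 1.89, adjusted p = 0.0492), and reads of the overlapping strands may not be separated. Crhr1, the receptor of corticotropin-releasing hormone, lies outside the naming rule for its low level and was chosen after its values were seen. It was at 3.09, 3.27, 2.33 and 3.58 CPM in CUMS and 0.14, 0.22, 1.04 and 0.14 CPM in Ctrl (log2 fold 2.93, adjusted p = 0.0424).

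Interferon-induced genes made up much of the upper end. Interferons are cytokines of antiviral defence, and their receptors act through transcription factors on an element called ISRE in the promoters of these genes. All 17 listed genes had a log2 fold above 0, with a median of 1.86, and 8 rose by the test, where 0.557% of all genes did. Among the listed genes the 2 highest folds were those of Ifit3 and Ifit1, which code for proteins that bind viral RNA or its partners. Ifit3 was at 9.81, 30.3, 54.3 and 184 CPM in CUMS 1 to 4 and at 6.10, 5.72, 7.88 and 7.82 CPM in Ctrl 1 to 4 (log2 fold 3.33 ± 0.70, SE, n = 4 each, adjusted p = 0.0314). Ifit1 was at 9.28, 22.7, 56.3 and 140 CPM in CUMS and 6.78, 5.94, 6.49 and 9.25 CPM in Ctrl (log2 fold 3.002 ± 0.65, adjusted p = 0.035). The controls lay close together, CUMS 4 stood far above, and CUMS 1 lay barely above the highest control.

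The promoters of 3 of these genes are shown for their ISRE letters, searched as GAAANNGAAA on both strands of the 250 bases before the start. These letters occur in 936 of 27025 genes (3.46%), in 7 of the 12 interferon-list genes that have an entry (Bst2, Cxcl10, Ifit1, Ifit3, Isg15, Oas1a and Rsad2), in 11 of 75 genes that rose (14.7%) and in 2 of 63 that fell (3.17%). Capitals mark the matches. The windows are chr19:34640639-34640888 on the plus strand for Ifit1, chr19:34583279-34583528 on the plus strand for Ifit3 and chr4:156200819-156201068 on the minus strand for Isg15, in GRCm38.p6 from RefSeq. Read on the opposite strand the motif is TTTCNNTTTC. Ifit1 and Ifit3 hold 2 matches each, and Isg15 holds 3, of which neighbouring ones overlap.
Ifit1: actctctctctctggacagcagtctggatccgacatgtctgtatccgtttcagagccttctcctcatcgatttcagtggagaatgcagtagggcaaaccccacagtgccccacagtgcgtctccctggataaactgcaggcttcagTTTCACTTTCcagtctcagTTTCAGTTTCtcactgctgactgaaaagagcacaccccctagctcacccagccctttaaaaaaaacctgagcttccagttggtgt
Ifit3: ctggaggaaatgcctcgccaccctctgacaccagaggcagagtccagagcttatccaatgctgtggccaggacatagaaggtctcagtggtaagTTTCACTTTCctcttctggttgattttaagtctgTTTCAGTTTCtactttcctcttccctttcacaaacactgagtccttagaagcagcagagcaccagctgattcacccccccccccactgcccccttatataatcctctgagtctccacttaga
Isg15: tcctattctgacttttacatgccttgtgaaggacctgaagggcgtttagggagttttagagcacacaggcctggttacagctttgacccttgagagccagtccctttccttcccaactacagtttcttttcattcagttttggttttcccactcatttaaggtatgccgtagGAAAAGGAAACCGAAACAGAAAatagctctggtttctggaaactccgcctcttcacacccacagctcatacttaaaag
Matches begin 104 and 85 bases before the start in Ifit1, 156 and 122 bases before it in Ifit3, and 78, 72 and 66 bases before it in Isg15.

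Isg15, a ubiquitin-like protein joined to other proteins during the response, was at 5.04, 24.4, 32.3 and 101 CPM in CUMS and 6.71, 6.61, 4.61 and 9.01 CPM in Ctrl (log2 fold 2.60 ± 0.64, adjusted p = 0.0455). CUMS 1 lay within the controls. Usp18, which removes ISG15 and dampens the receptor, was at 6.10, 9.82, 28.8 and 72.1 CPM in CUMS and 4.61 to 4.96 CPM in Ctrl (log2 fold 2.61 ± 0.57, adjusted p = 0.035). Ddx58, the RNA sensor RIG-I, was at 42.1, 56.4, 94.1 and 174 CPM in CUMS and 37.6 to 42.4 CPM in Ctrl (log2 fold 1.20 ± 0.30, adjusted p = 0.0455). Ifi44, Oasl2 and Rtp4 also rose, with log2 folds of 2.51, 1.73 and 1.99. Outside the list the naming rule added Oas2 (2.41), Mx2 (2.18) and Ifit3b (3.11), of which Ifit3b is a near copy of Ifit3 and may share its reads. Irf7, a transcription factor that amplifies the response, was at 11.6, 24.3, 55.2 and 129 CPM in CUMS and 12.5 to 14.3 CPM in Ctrl, and did not pass (log2 fold 2.04, adjusted p = 0.0553).

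The order of the stressed libraries was the same in nearly all of these genes. In 16 of the 17 the values ran CUMS 1, CUMS 2, CUMS 3, CUMS 4 from low to high, and in 12 of the 17 CUMS 1 lay at or below the highest control. Cxcl10, a chemokine gene, was the exception, at 3.80, 36.7, 8.09 and 15.4 CPM in CUMS 1 to 4 and 3.59 to 6.35 CPM in Ctrl (log2 fold 1.86, adjusted p = 0.0513). Summed over the list, CUMS 1 to 4 held 462, 791, 1105 and 2427 CPM, and Ctrl 1 to 4 held 436, 398, 472 and 476 CPM. No member was called without CUMS 4, without CUMS 3, without Ctrl 1, without Ctrl 2, without Ctrl 4 or with the 8 libraries fitted alone, while 14 were called without CUMS 1, 9 without CUMS 2 and 5 without Ctrl 3. With both CUMS 3 and CUMS 4 left out, a setting added after the data were seen, the median log2 fold was 0.47 and no member was called. The sums of macrophage markers did not show that order, at 1033, 1006, 942 and 1092 CPM in CUMS 1 to 4 and 1025 to 1384 CPM in Ctrl. These sums weigh Lyz2 most (log2 fold -0.62), and the order within single markers was not counted. Of the 16 markers, 13 had a log2 fold under 0. Lymphocyte markers summed to 35.9 to 55.1 CPM in CUMS and 37.2 to 45.9 CPM in Ctrl. Neutrophil markers, 5 of 8 of which had enough counts to be tested, summed to 0.92 to 4.44 CPM in CUMS and 1.29 to 6.05 CPM in Ctrl. In bulk RNA, a different number of cells of a type and a different amount of RNA per cell cannot be told apart.

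**Figure D2:**
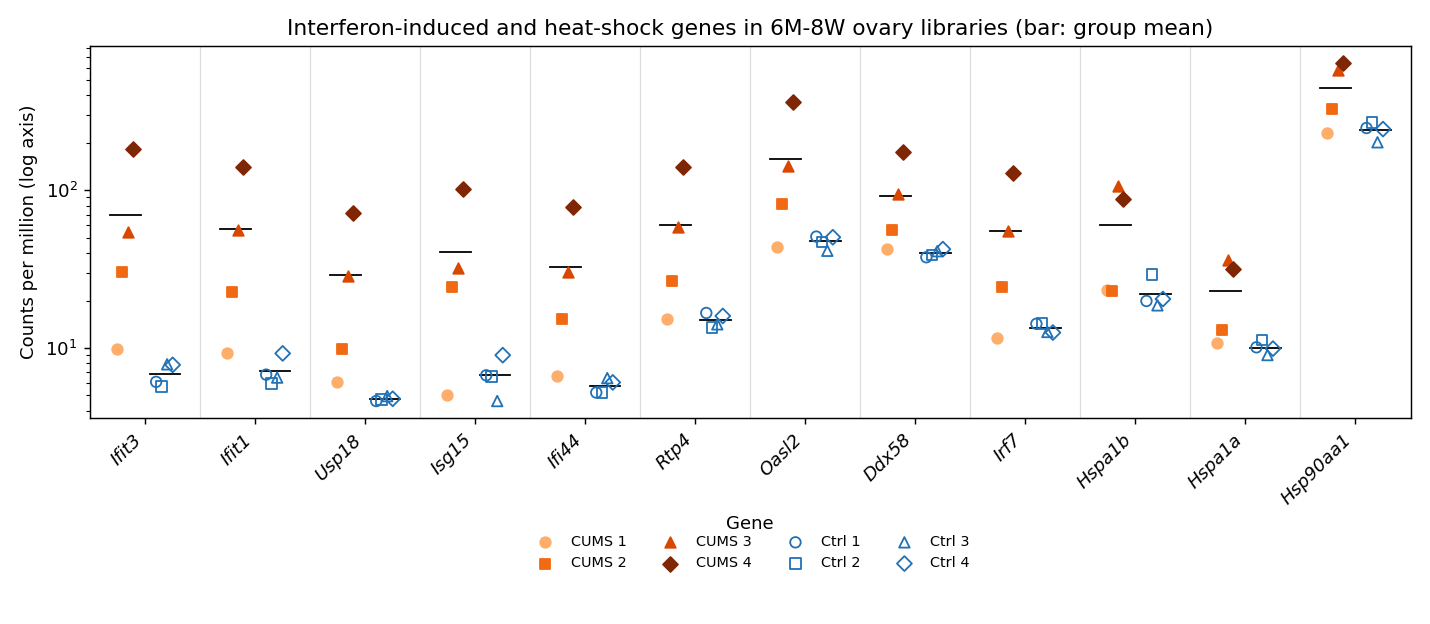
CPM on a log axis for 9 interferon-induced genes and 3 heat-shock genes in each 6M-8W ovary library. Filled symbols are CUMS 1 to 4, open symbols are Ctrl 1 to 4, and bars are group means. CUMS 4 is the highest library for each interferon-induced gene shown (184 CPM for Ifit3), and CUMS 3 and 4 are the highest for the heat-shock genes.

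Heat-shock proteins keep other proteins folded, and their genes respond to heat and to misfolding. All 12 listed genes had a log2 fold above 0, with a median of 0.47, and 4 rose, where 0.557% of all genes did. Hspa1b was at 23.4, 23.0, 106 and 88.0 CPM in CUMS 1 to 4 and 19.9, 29.1, 18.6 and 20.4 CPM in Ctrl 1 to 4 (log2 fold 1.45 ± 0.36, SE, n = 4 each, adjusted p = 0.0455). Its near copy Hspa1a, with which it may share reads, was at 10.7, 13.0, 36.2 and 31.8 CPM in CUMS and 9.02 to 11.2 CPM in Ctrl (log2 fold 1.19, adjusted p = 0.0442). Hsp90aa1, the inducible cytosolic HSP90, was at 231, 326, 575 and 643 CPM in CUMS and 201 to 269 CPM in Ctrl (log2 fold 0.88, adjusted p = 0.0455). For these 3 genes CUMS 3 and 4 were high while CUMS 1 lay within the controls, and in 10 of the 12 members CUMS 3 and 4 both exceeded CUMS 1 and 2. The mitochondrial chaperone gene Hspd1 differed from that pattern, at 781, 833, 797 and 755 CPM in CUMS and 592, 583, 539 and 659 CPM in Ctrl, with no overlap (log2 fold 0.42 ± 0.10, adjusted p = 0.0483). With CUMS 3 and 4 left out the list median was 0.07. No member was called without CUMS 3, without CUMS 4 or without any 1 of the controls.

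In the unfolded protein response of the endoplasmic reticulum, 2 of 20 genes rose, where 0.557% of all tested genes did, and none fell. Herpud1, which takes part in the disposal of misfolded proteins, was at 56.5, 63.2, 92.7 and 81.2 CPM in CUMS and 51.9, 50.1, 58.3 and 46.8 CPM in Ctrl (log2 fold 0.50, adjusted p = 0.0455). Dnajb9, a cochaperone, was at 82.0, 57.6, 85.7 and 92.2 CPM in CUMS and 54.7 to 59.3 CPM in Ctrl (log2 fold 0.48, adjusted p = 0.0484). In each gene 1 stressed ovary lay within the controls. The sensor's main chaperone gene Hspa5 was at 454 to 1350.3 CPM in CUMS and 487 to 795 CPM in Ctrl (log2 fold 0.53, adjusted p = 0.354). Neither Herpud1 nor Dnajb9 was called without CUMS 3, without CUMS 4, or without Ctrl 1, Ctrl 2 or Ctrl 4.

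Genes that fell included ligands, enzymes and membrane proteins of low to moderate level. Cpxm2, a secreted protein of the carboxypeptidase family, was at 17.6, 13.0, 10.4 and 11.1 CPM in CUMS 1 to 4 and 89.3, 55.0, 32.5 and 91.8 CPM in Ctrl 1 to 4 (log2 fold -2.36 ± 0.43, SE, n = 4 each, adjusted p = 0.0131). Wnt6, a WNT ligand, was at 27.8, 32.6, 34.3 and 26.9 CPM in CUMS and 105, 92.2, 48.6 and 112 CPM in Ctrl (log2 fold -1.56 ± 0.31, adjusted p = 0.0219). Wnt10a, its neighbour on chromosome 1 and likewise a WNT ligand, was at 1.46, 1.99, 2.62 and 1.34 CPM in CUMS and 21.5, 14.5, 4.46 and 24.4 CPM in Ctrl (log2 fold -3.13 ± 0.76, adjusted p = 0.0455). The groups were apart for all 3, and Ctrl 3 was the control nearest to the stressed ovaries. Cd244, a receptor of natural killer cells, had the lowest fold by the naming rule, at 3.32, 2.81, 2.42 and 1.94 CPM in CUMS and 44.1, 19.3, 4.56 and 41.1 CPM in Ctrl (log2 fold -3.37 ± 0.68, adjusted p = 0.0261). Tmem72, a membrane protein gene, was at 3.83 to 8.59 CPM in CUMS and 10.4 to 36.3 CPM in Ctrl (log2 fold -2.20, adjusted p = 0.0375), and Thsd7b, with thrombospondin domains, at 1.59 to 4.69 CPM in CUMS and 4.46 to 16.0 CPM in Ctrl (log2 fold -2.10, adjusted p = 0.0416). For Thsd7b, Ctrl 3 lay within the stressed range.

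Ctrl 3 was the lowest control in 69 of the 100 genes that fell, and CUMS 4 the highest stressed library in 47 of the 99 that rose. The same shares over all tested genes were not counted, so these counts do not set the called genes apart from the rest. Without Ctrl 3 196 genes fell, against 1 without Ctrl 1 and 7 without Ctrl 4. Smaller and tighter differences were seen in Plxdc1, a receptor on endothelial cells, at 16.9, 18.6, 12.9 and 11.9 CPM in CUMS and 35.2, 27.7, 26.1 and 29.3 CPM in Ctrl (log2 fold -0.97 ± 0.16, adjusted p = 0.00618). Actn3, an actinin of fast muscle fibres, was at 2.39, 1.58, 1.70 and 1.64 CPM in CUMS and 6.44, 4.43, 3.07 and 4.003 CPM in Ctrl (log2 fold -1.28 ± 0.22, adjusted p = 0.0117). Extl1, a glycosyltransferase of heparan sulfate, was at 2.39, 3.16, 1.74 and 1.89 CPM in CUMS and 6.10, 5.88, 4.41 and 5.10 CPM in Ctrl (log2 fold -1.23 ± 0.22, adjusted p = 0.0117). None of these 3 overlapped between groups, and they were called in 11, 10 and 10 of the 14 alternatives. Atp12a, a proton pump subunit (log2 fold -2.53), Car12, a carbonic anhydrase (-1.66), and Aldh1l2, a mitochondrial enzyme of folate metabolism (-1.65), also fell. Ugt1a6a and Ugt1a6b (-1.78 and -2.66) are glucuronosyltransferase genes that share exons, and Pcdhga8 and Pcdhgc5 (-3.20 and -2.44) are protocadherins that share a constant region, so their counts are uncertain. The Pcdhgc5 fold rests on Ctrl 4, at 98.0 CPM, and was -0.49 without it. Pcdhga8 was high in Ctrl 1 and Ctrl 3, at 35.2 and 76.3 CPM, while Ctrl 2 and Ctrl 4 were at 5.60 and 3.34 CPM, and its log2 fold was -2.14 without Ctrl 3.

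**Figure D3:**
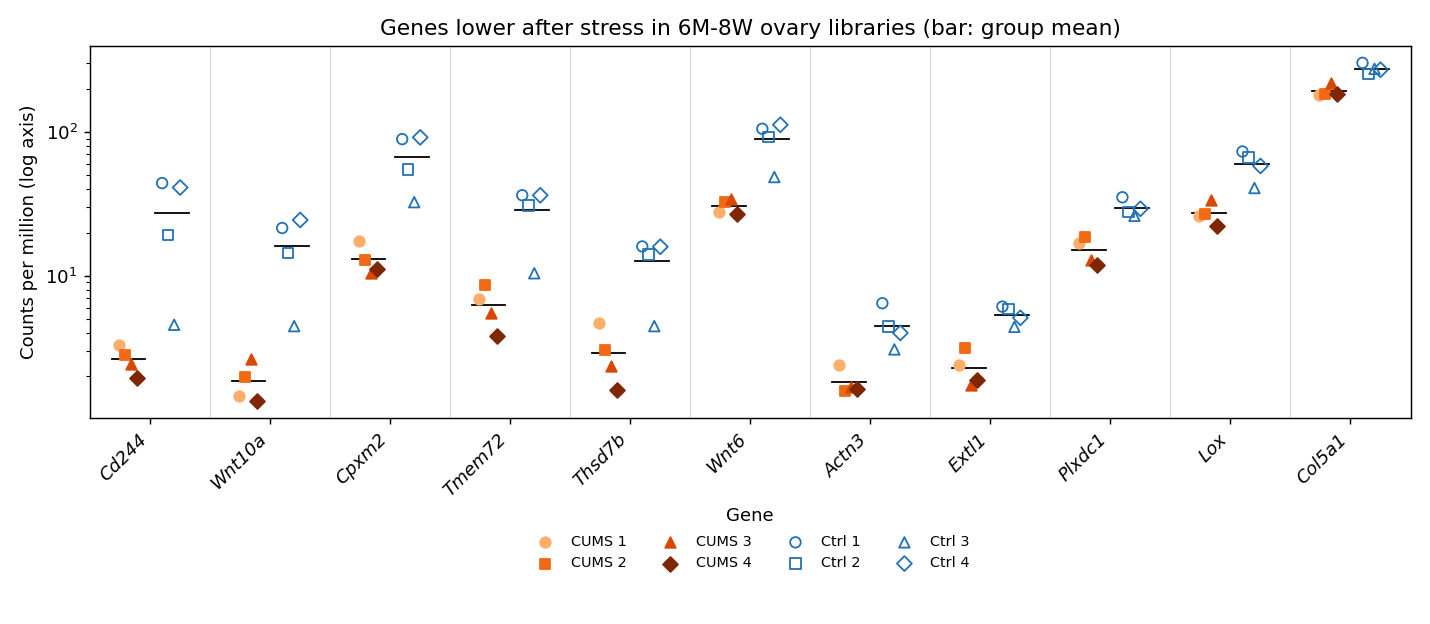
CPM on a log axis for 11 genes that fell after stress, in each 6M-8W ovary library. Filled symbols are CUMS 1 to 4, open symbols are Ctrl 1 to 4, and bars are group means. Ctrl 3 (open triangle) is the lowest control for most of these genes, as for Wnt10a at 4.46 CPM against 14.5 to 24.4 CPM in the other controls.

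Most matrix genes had log2 folds under 0 and few passed. Of 20 genes of collagens, matrix proteins and their enzymes, 18 had a log2 fold under 0, with a median of -0.28, 2 fell and 1 rose, where 0.563% of all genes fell and 0.557% rose. In all, 10 were wholly below the controls, as were 5.57% of all genes. Lox, which cross-links collagen, was at 26.04, 26.7, 33.5 and 22.3 CPM in CUMS and 73.2, 66.8, 40.8 and 58.0 CPM in Ctrl (log2 fold -1.14 ± 0.29, adjusted p = 0.0473). Col5a1, a chain of a fibril collagen, was at 181, 185, 220 and 185 CPM in CUMS and 303, 253, 275 and 271 CPM in Ctrl (log2 fold -0.52 ± 0.13, adjusted p = 0.0455). Col1a1, the main fibril collagen, was at 357, 333, 333 and 440 CPM in CUMS and 750, 554, 642 and 697 CPM in Ctrl, and did not pass (log2 fold -0.85 ± 0.22, adjusted p = 0.0513). The member that rose, Timp3, inhibits matrix proteases, at 385, 471, 539 and 460 CPM in CUMS and 320, 301, 393 and 321 CPM in Ctrl, with CUMS 1 below Ctrl 3 (log2 fold 0.47, adjusted p = 0.0433). Without single libraries at most 1 member fell by the test. Of 10 smooth muscle markers 8 had a log2 fold under 0, with a median of -0.17, and none was called. In all, 3 were wholly below the controls (5.57% of all genes were), while Rgs5 and Des had log2 folds of 0.28 and 0.08. Acta2, the lowest fold of the 10, was at 519 to 567 CPM in CUMS and 651 to 718 CPM in Ctrl (log2 fold -0.33, adjusted p = 0.152).

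Follicle, theca and oocyte genes gave no call. No member of the granulosa (17 tested), theca (8), oocyte (25) or hormone receptor (17) lists passed the test, and median log2 folds were 0.19, 0.18, -0.14 and 0.19. Fshr, the receptor of follicle-stimulating hormone, was at 29.1, 17.6, 29.3 and 30.7 CPM in CUMS and 16.4, 32.1, 24.1 and 14.5 CPM in Ctrl (log2 fold 0.29 ± 0.33, adjusted p = 0.727). Cyp19a1, the aromatase that makes estradiol, was at 117, 29.7, 59.5 and 81.9 CPM in CUMS and 18.03, 46.2, 75.6 and 53.6 CPM in Ctrl (log2 fold 0.57 ± 0.53, adjusted p = 0.653). Both spread widely and overlapped between groups. Cyp17a1, the androgen-forming enzyme of theca cells, averaged 271 ± 80.3 CPM in CUMS and 237 ± 182 CPM in Ctrl (SD, n = 4 each, adjusted p = 0.926). Nr3c1, the glucocorticoid receptor, was at 49.4 to 73.7 CPM in CUMS and 41.0 to 69.3 CPM in Ctrl (log2 fold 0.14, adjusted p = 0.831), and none of 24 glucocorticoid response genes was called. Nr5a2, a nuclear receptor of granulosa and luteal cells, was wholly above the controls without passing (log2 fold 0.63, adjusted p = 0.0769). In 26 of 33 lists no member passed.

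**Figure D4:**
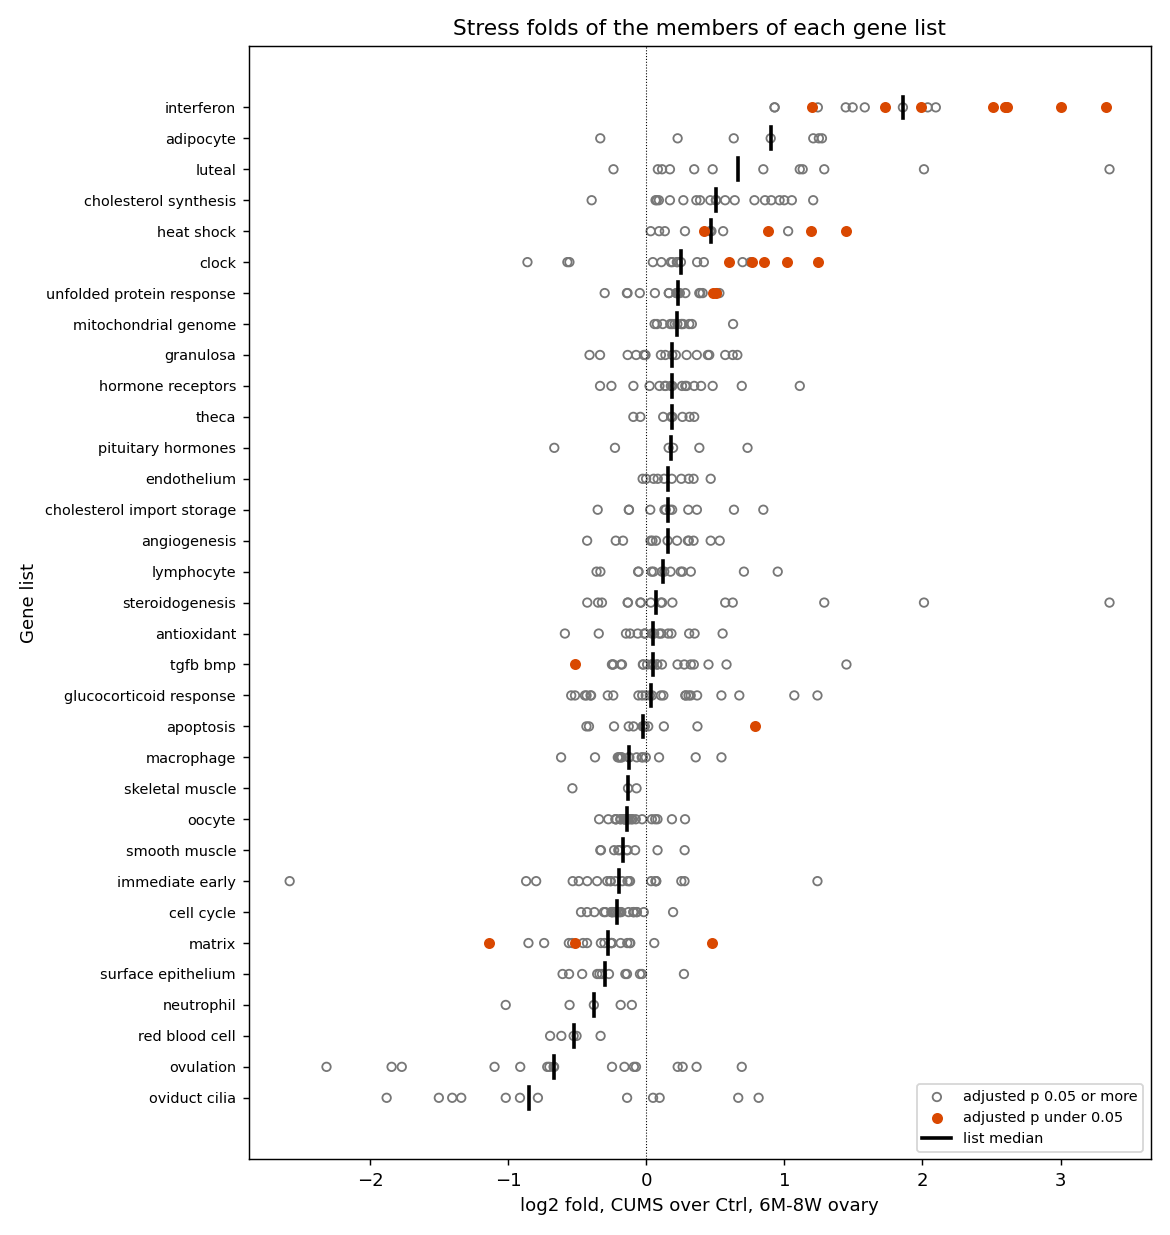
Log2 folds (CUMS over Ctrl, horizontal axis) of the tested members of 33 gene lists in 6M-8W ovary, with lists ordered by their median (black bar). Filled points had an adjusted p under 0.05 and open points did not. The interferon list has the highest median (1.86) and 8 filled points, and the clock list has 5.

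Genes of the corpus luteum and of cholesterol supply lay higher in some stressed ovaries without a call. Of 12 luteal genes 11 had a log2 fold above 0, with a median of 0.66, and 3 were wholly above the controls (4.47% of all genes were). Star, which carries cholesterol into mitochondria, was at 2366, 2978, 629 and 716 CPM in CUMS 1 to 4 and 843, 600, 331 and 962 CPM in Ctrl 1 to 4 (log2 fold 1.29 ± 0.57, adjusted p = 0.27). Akr1c18, which breaks down progesterone in the regressing corpus luteum, was at 174, 212, 154 and 1050 CPM in CUMS and 40.9, 27.4, 56.7 and 30.3 CPM in Ctrl (log2 fold 3.35 ± 1.16, adjusted p = 0.144). Thus Star was high in CUMS 1 and 2, Akr1c18 was highest in CUMS 4, and Lhcgr, the receptor of luteinizing hormone, was lowest in CUMS 4 at 130 CPM, against 437 to 666 CPM in the other CUMS libraries and 245 to 515 CPM in Ctrl. Of 20 cholesterol synthesis genes 19 had a log2 fold above 0, with a median of 0.50, and in 17 of the 20 CUMS 1 and 2 both exceeded CUMS 3 and 4. Lss, lanosterol synthase, was at 136, 172, 97.0 and 66.2 CPM in CUMS and 40.1, 49.2, 53.0 and 61.2 CPM in Ctrl, apart but not called (log2 fold 1.21 ± 0.39, adjusted p = 0.115). Ovulation genes lay lower, with a median of -0.67 over 17 and none called. Adamts1, a protease of the ovulating follicle, was at 74.3, 63.1, 66.6 and 48.9 CPM in CUMS and 301, 200, 102 and 259 CPM in Ctrl (log2 fold -1.77 ± 0.50, adjusted p = 0.0733).

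The stress effect of the 6M-8W ovary was then set against the mean effect of the other 3 sets, each against its own controls. It differed in 726 genes (4.09%), in 421 toward higher and in 305 toward lower in 6M-8W, and the count was 124 without Ctrl 1, 101 without Ctrl 2, 159 without CUMS 3 and 386 without Ctrl 4. Luteal and cholesterol genes were among the groups that differed. The difference passed in 4 of 12 luteal genes and 5 of 20 cholesterol synthesis genes, all toward higher in 6M-8W, where 2.37% of all genes did. Star had a log2 fold of 1.29 in 6M-8W and of -0.92, -1.35 and -1.33 in 2M-8W, 2M-12W and 6M-12W, a difference of 2.49 ± 0.67 (SE, adjusted p = 0.0375). Prlr, the prolactin receptor that sustains the corpus luteum, had 0.48 in 6M-8W and -0.89, -0.76 and -1.33 in the other sets (difference 1.47 ± 0.31, adjusted p = 0.0154). Cyp51, a sterol demethylase, had 0.86 in 6M-8W and -0.40, -0.74 and -0.46 in the others (difference 1.39 ± 0.31, adjusted p = 0.0187). In none of these 3 was the 6M-8W effect itself past the threshold. Hsd17b7, a luteal enzyme also used in cholesterol synthesis, was chosen after its values were seen, and had 2.01 in 6M-8W and -2.47, -1.99 and -3.41 in the others (difference 4.63, adjusted p = 0.0258).

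**Figure D5:**
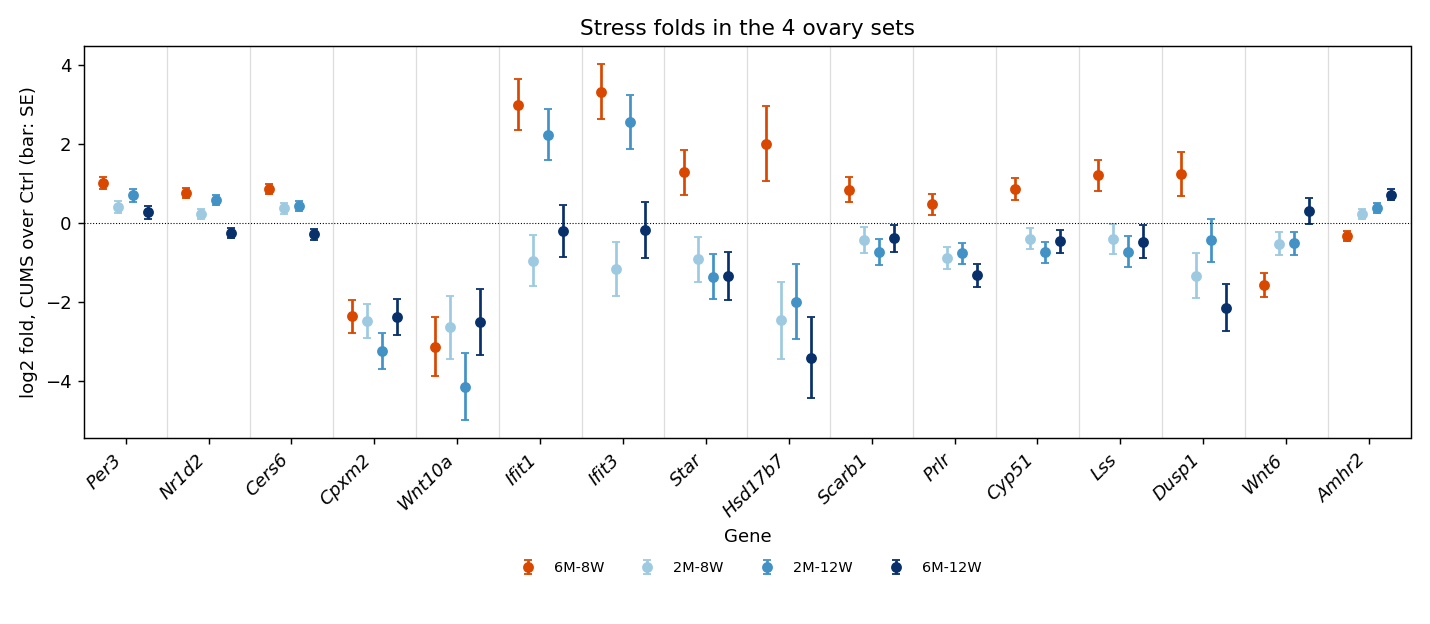
Log2 stress folds (CUMS over Ctrl, vertical axis, bars are SE) of 16 genes in 6M-8W, 2M-8W, 2M-12W and 6M-12W ovary, each set against its own controls. Star, Scarb1, Prlr, Cyp51 and Lss lie above 0 in 6M-8W and below 0 in the other sets, whereas Cpxm2 (-2.36 in 6M-8W) and Wnt10a lie below 0 in all 4.

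Cell cycle genes differed the other way. Of 24 genes, 9 had an effect lower in 6M-8W than in the other sets (1.72% of all genes did), while none was called within 6M-8W, where 23 of 24 had a log2 fold under 0 and the median was -0.21. Cdc20, an activator of the anaphase complex, was at 30.3, 32.3, 31.6 and 38.1 CPM in CUMS and 47.4, 60.4, 31.9 and 38.4 CPM in Ctrl (difference from the other sets -0.79, adjusted p = 0.0173). Plk1, a mitotic kinase, differed by -0.71 (adjusted p = 0.0163), and Amhr2, the receptor of anti-Müllerian hormone, by -0.77 (adjusted p = 0.0113). Heat-shock genes had 4 differences, all higher in 6M-8W (2.37% of all genes were), Hspd1 among them at 0.69 ± 0.12 (adjusted p = 0.00772).

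Among the genes called within 6M-8W the relation to the other sets varied. Cpxm2 fell in all 4 sets, with log2 folds of -2.36 in 6M-8W and -2.48, -3.25 and -2.38 in 2M-8W, 2M-12W and 6M-12W, and the difference was 0.34 ± 0.48 (adjusted p = 0.73). Wnt10a likewise fell in each (-3.13 in 6M-8W and -2.64, -4.15 and -2.50 in the others). Wnt6 had -1.56 in 6M-8W and -0.52, -0.52 and 0.30 in the others (difference -1.31 ± 0.35, adjusted p = 0.0361). Per3 had 1.02 in 6M-8W and 0.40, 0.70 and 0.27 in the others (difference 0.56 ± 0.18, adjusted p = 0.0656), while for Nr1d2 and Cers6 the difference passed (0.58 and 0.70, adjusted p = 0.0218 and 0.0155). Ifit3 had 3.33 in 6M-8W, and -1.16, 2.57 and -0.18 in the others, where the 2M-12W value also passed its own test (adjusted p = 0.0238), and the difference from the mean of those 3 was 2.92 ± 0.78 (adjusted p = 0.0366). Against 2M-8W alone, the younger animals at the same duration, no gene passed (0%, while 2752 genes had an unadjusted p under 0.05, and DESeq2 called 541). The smallest p-values were those of Sdr42e1, Ttl, Evpl, Cep128 and Parpbp, with differences of -1.11, -0.51, -1.76, -0.99 and -0.88, each at an adjusted p of 0.0811. A batch that followed the sets and the sets themselves cannot be told apart in these comparisons.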

How the data were processed

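Ovary RNA libraries were made from total RNA with a NEBNext Ultra II RNA kit, per the labels' protocols. The authors deposited raw read counts per gene for 34745 genes and, beside them, FPKM values (counts scaled by gene length and library total), which entered no comparison. The aligner, counting program, strand setting and annotation are not stated in the sources used here. Gene positions are those of GRCm38. Genes were kept with filterByExpr (17766 of 34745), scaled by TMM and tested with the quasi-likelihood F test of edgeR 4.0.16 in R 4.3.3, with all 31 ovary libraries of 8 groups in 1 model and Benjamini-Hochberg adjustment over all tested genes (threshold 0.05). An SE is the size of the log2 fold over the root of F. CPM values use TMM-scaled totals. Expression was not compared between genes.

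Named genes are 22 core ovary genes, the 12 highest and 12 lowest called folds, without predicted genes, pseudogenes and genes of a mean log2 CPM under 1, the 10 smallest adjusted p, the called members or 2 smallest p of each of 34 lists (33 and the core genes), and the 6 highest and 6 lowest, or 5 smallest p, of each difference between sets. Members and lists were chosen with earlier results of these data known. Alternatives were DESeq2 1.42.0, RLE factors, no filter, the 8 libraries of 6M-8W alone, a replicate block, each of these 8 left out, and CUMS 3 and 4 left out. The fit was tested on simulated data. Libraries within a group all differed, by a chi-square over degrees of freedom of at least 10.5. Promoters are RefSeq's for GRCm38.p6. A gene that the naming rule gives is not reported here.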

Additional observations from a re-analysis of the deposited data

Results flagged for a closer look

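Of 262 sets of 4 values (131 named genes in CUMS and in Ctrl), 16 held a library whose gap to the next value, as a share of the range, passed the critical value of Dixon's test, where chance gives about 1 in 20. In CUMS these were Akr1c18 at 1050 CPM and Pcdhgc5 at 9.65 CPM in CUMS 4, Saa3 at 79.7 and Fshr at 17.6 in CUMS 2, Pgr at 6.14, Actn3 at 2.39 and Sdr42e1 at 5.53 in CUMS 1, and Col5a1 at 220 in CUMS 3. In Ctrl these were Bmp2 at 34.5 CPM, Nr1d2 at 142, Pgr at 3.32, Mylpf at 2.43 and Thsd7b at 4.46 in Ctrl 3, Tef at 87.8 and Vegfa at 98.8 in Ctrl 2, and Pcdhgc5 at 98.0 in Ctrl 4. Of the 8 control values, 5 belong to Ctrl 3.

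The stress effect in 6M-8W differed from the mean of the other 3 sets, by the edgeR test of that difference, in 44 of the 131 named genes and in 4.09% of all genes. The named genes include 12 chosen for this same difference and 5 chosen for the related difference from 2M-8W, so nothing is read from their share. Values here are those differences on the log2 scale. By the naming rule the highest were Ces2a (5.58), Tnfrsf9 (5.53), Ssu2 (5.33), Cldn18 (4.99), Fer1l4 (4.85) and Saa3 (4.79). None of these 6 was called within 6M-8W, where their log2 folds in the 14 alternatives lay between 0.30 (Ces2a) and 3.18 (Ssu2). Each fold stayed below its difference, the rest being a mean fold under 0 in the other sets. Interferon-induced genes followed with Ifit3 (2.92), Oas2 (2.67), Ifit1 (2.64), Ifi44 (2.51) and Oasl2 (1.83). Luteal and cholesterol genes were Star (2.49), Lss (1.74), Prlr (1.47), Cyp51 (1.39), Scarb1 (1.37) and Stard4 (0.81). The phosphatase gene Dusp1 differed by 2.55, A2m by 4.42, Ada by 1.04, Pmaip1 by 0.79, Cers6 by 0.70 and Nr1d2 by 0.58. Among chaperones and vessel or matrix genes the values were 1.04 for Hsp90aa1, 0.69 for Hspd1, 0.83 for Timp3, 0.73 for Flt1 and 0.45 for Tek. Toward lower in 6M-8W were Wnt6 (-1.31), Tymp (-1.28), Col22a1 (-1.22), Actn3 (-1.19), Tgif2 (-1.15), Plin1 (-1.14), Evpl (-1.06), Extl1 (-1.03), Cdc20 (-0.79), Amhr2 (-0.77), Plk1 (-0.71), Cep128 (-0.64), Parpbp (-0.62), Sdr42e1 (-0.62), Tgfb3 (-0.54) and Ttl (-0.37). Of the 6 highest, Saa3 moved most with 1 library of 6M-8W left out (3.04 to 5.15), while the other 5 stayed between 4.44 and 6.05. Libraries of the other sets were never left out, so these ranges do not test the part that comes from them. Saa3 was at 79.7 CPM in CUMS 2 and 4.53 to 12.9 CPM in the other CUMS libraries, against 2.75 to 8.48 CPM in Ctrl.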

How the results depend on the processing

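The 199 calls (99 higher, 100 lower) became 598 (325, 273) with DESeq2, 84 (39, 45) without the filter, 99 (33, 66) in the 8 libraries alone, 28 (8, 20) with the replicate block, 23 (20, 3) with CUMS 3 and 4 left out, and 4 to 336 (3 to 141 higher, 1 to 196 lower) with 1 library left out. With RLE factors the count was 211, of which 196 were shared with the 199. Shared in the same way were 197 of 598 with DESeq2 and all 84 without the filter. In the 8 libraries alone 48 of 99 were shared, and 23 of 28 with the block. With CUMS 3 and 4 left out 10 of 23 were shared, and without Ctrl 3 163 of 336. Against the mean of the other sets the 726 genes (421, 305) became 1491 (925, 566) with DESeq2, 460 without the filter (160 lower), 272 (175, 97) with the block, 383 (264, 119) with CUMS 3 and 4 left out, and 101 to 928 (53 to 590 higher, 43 to 380 lower) with 1 library left out. Against 2M-8W the count of 0 became 541 with DESeq2, 5 with CUMS 3 and 4 left out and 0 to 140 with 1 library left out. Same-numbered libraries showed no common deviation (correlations 0.01, -0.01, 0.12 and -0.13), where pairs of unlike number ran from -0.12 to 0.15. So few values cannot exclude a pairing.

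In genes never called, the log2 fold changed sign for Foxl2 with DESeq2 (0.0043), RLE (0.0043) and no filter (0.0023), and with CUMS 3 and 4 left out for Foxl2 (0.0700), Lhb (0.0301), Hsd3b1 (0.12), Nr3c1 (-0.0303), Esr2 (-0.16), Cyp17a1 (-0.18) and Fcgr1 (-0.12). With 1 library left out the ranges were -0.0563 to 0.0515 for Foxl2, -0.31 to 0.0484 for Bmp15, -0.21 to 0.12 for Mylpf, -0.11 to 0.0293 for Hsd3b1 and -0.13 to 0.81 for Cyp17a1. The cause was not tested. Of the remaining gene folds, list medians and differences under the alternatives, 1945 counted as unchanged, 445 lost the call, 24 gained one and 13 list medians moved. For gene folds and differences, unchanged means the same direction and side of the threshold. For a list median it means a shift smaller than the SD between libraries, so its sign could change. The steroidogenesis median, for 1, went from 0.07 to -0.02 without CUMS 1. With 4 libraries a side and a biological coefficient of variation of 0.207, changes in low genes were not detectable unless large.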

Other observations

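Endothelial markers summed higher than in Ctrl in CUMS 1 to 3 of 6M-8W, and lower than in Ctrl in CUMS 4. The sums were 759, 809, 681 and 572 CPM in CUMS 1 to 4 and 589 to 651 CPM in Ctrl. None of 10 endothelial genes was called, 8 had a log2 fold above 0 and the median was 0.16, while 4 differed from the other sets toward higher, as 2.37% of all genes did. Flt1, a receptor of vascular endothelial growth factor, had the highest log2 fold of the 10. It was at 59.2, 67.6, 54.7 and 48.3 CPM in CUMS and 46.6, 37.9, 38.6 and 43.2 CPM in Ctrl, apart but not called (log2 fold 0.47 ± 0.17, adjusted p = 0.176). Its ligand gene Vegfa was at 178, 218, 148 and 125 CPM in CUMS and 120, 98.8, 123 and 121 CPM in Ctrl (log2 fold 0.53 ± 0.17, adjusted p = 0.103).

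Immediate early genes, which answer to stimuli within minutes, gave no call among 22, with a median of -0.20, and 4 differed from the other sets toward higher, against 2.37% of all genes. One of those 4 was Dusp1, a phosphatase gene also induced by glucocorticoids, at 142, 162, 94.1 and 24.9 CPM in CUMS 1 to 4 and 53.6, 34.9, 44.1 and 46.5 CPM in Ctrl 1 to 4. CUMS 4 lay below every control and the other 3 stressed ovaries above them (log2 fold 1.24 ± 0.55, adjusted p = 0.27).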
